A study of Mus musculus with 3 samples.

Results

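The comparison of granulosa cells 4 h after hCG with granulosa cells just before it covers 2 of the 3 libraries of the series and asks which messenger RNAs had changed early in the response to the ovulatory signal. Granulosa cells are the somatic cells that surround the oocyte and line the wall of the ovarian follicle. The donors were wild type C57BL/6 females at postnatal day 21 to 28, and both groups had been given 4 IU of equine chorionic gonadotropin (eCG), so that follicles had grown before the comparison began. The 0 h group had no hCG, and the 4 h group was taken 4 h after 5 IU of human chorionic gonadotropin (hCG). Cells were released by puncturing follicles, with no sort or gate named in the labels, and RNA came from 3 mice at each time. Each time is 1 library and the labels do not say whether the RNA of the mice was pooled, so no spread between mice can be computed, no test was run, and every difference below is a difference between those 2 libraries.

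Before ovulation, granulosa cells are kept in a growing, estrogen-producing state by follicle-stimulating hormone. hCG binds the receptor for luteinizing hormone, which raises cyclic AMP and activates protein kinase A. The EGF-like ligands that are then made act on the EGF receptor of neighbouring cells. The known outcome is expansion of the cumulus around the oocyte, resumption of meiosis, rupture of the follicle wall and the change of granulosa cells into progesterone-producing luteal cells.

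Levels are FPKM, that is, fragment counts scaled for transcript length and library depth, summed over the RefSeq isoforms of a gene. Of 20502 protein-coding genes, 12534 were at 1 FPKM or more in at least 1 of the 2 libraries and were compared. The other 7968 were below that in both, and 4348 of these were listed at 0 in both. A log2 fold is log2 of FPKM + 1 at 4 h over FPKM + 1 at 0 h, which understates the change of low genes. A gene is called higher or lower where it passed 2-fold, a rule of size in place of a test. Intervals in parentheses are the lower and upper bounds deposited with the estimates, whose level is not stated. They describe the estimate within 1 library and not the spread between mice. The fragment total behind the FPKM, read from the steps between low values, was 13400000 at 0 h and 11900000 at 4 h. It is the depth of the library only if the libraries were not scaled to each other before deposit, which was not tested. A single fragment of a 2 kb transcript came to 0.0373 and 0.0420 FPKM. Some genes that every cell uses, such as Gapdh at 0.909 and 1.02 FPKM, were near 0 in both libraries, and a gene listed at 0 may be a failed estimate.

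By the 2-fold rule 1206 of the 12534 genes were higher at 4 h, which is 9.62% of those compared, and 810 were lower, which is 6.46%. The sum of protein-coding FPKM was larger at 4 h, 468607 against 401480. FPKM are scaled to a fragment total of each library and there is no external standard, so these sums do not measure RNA content per cell. The cause of the difference was not tested. With both libraries brought to the mean of these sums, the median log2 fold of all genes moved from -0.0066 to -0.21 and the split turned to 958 higher and 1329 lower. Genes called higher made up 59.8% of all calls on the deposited scale and 41.9% on the rescaled one. The median log2 folds of gene groups below are on the deposited scale, and each is to be read against the median of all genes of -0.0066. The bounds of the 2 libraries lay apart for 1122 of the higher genes and 702 of the lower ones.

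Higher and lower genes differed in how far they moved. At a threshold of 1.5-fold the counts were nearly level, 2317 higher and 2267 lower. At 4-fold they were 393 and 75, at 8-fold 153 and 11, and at 32-fold 32 and 1, the 1 being Inhbb. A gene listed low at 0 h can only pass upward, and the shares differed by starting level. Among 653 genes below 1 FPKM at 0 h, which were compared only because they were at 1 FPKM or more at 4 h, 48.2% were higher. Among 4725 genes at 1 to 10 FPKM the shares were 10.9% higher and 6.39% lower, among 6474 genes at 10 to 100 FPKM 5.30% and 7.07%, and among 682 genes at 100 FPKM or more 4.99% and 7.33%. From 10 FPKM upward, lower genes thus outnumbered higher ones.

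**Figure D1:**
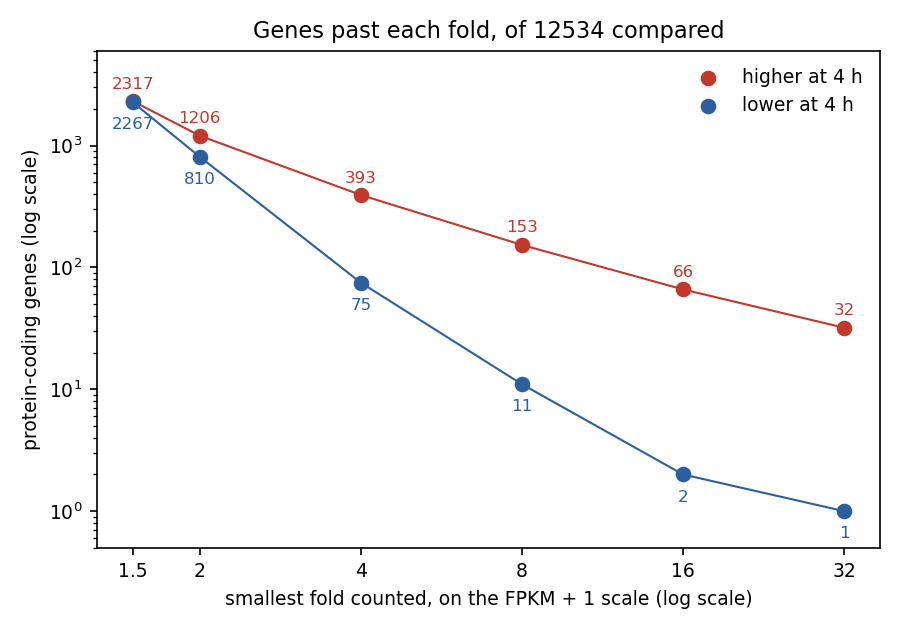
Number of the 12534 protein-coding genes past each fold (x axis, log scale) in each direction (y axis, log scale), 1 library per time. The counts nearly meet at 1.5-fold, 2317 higher and 2267 lower, and stand at 153 and 11 at 8-fold.

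The genes with large folds started low and ended high. The 153 genes higher by at least 8-fold had a median of 1.95 FPKM at 0 h and 63.2 at 4 h. Together they held 0.475% of protein-coding FPKM at 0 h and 8.81% at 4 h. The 1053 genes higher by 2-fold to 8-fold went from 4.21% to 12.3%, the 810 lower genes from 9.50% to 2.83%, and the 10518 genes within 2-fold from 85.6% to 75.9%. These classes were cut on the same 2 libraries, so the shares describe the change and do not support it. The FPKM gained by all genes that gained came to 128797 and the FPKM lost by all that lost to 61711. The 12 largest gains held 18.8% of the first sum and the 12 largest losses 17.2% of the second.

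**Figure D2:**
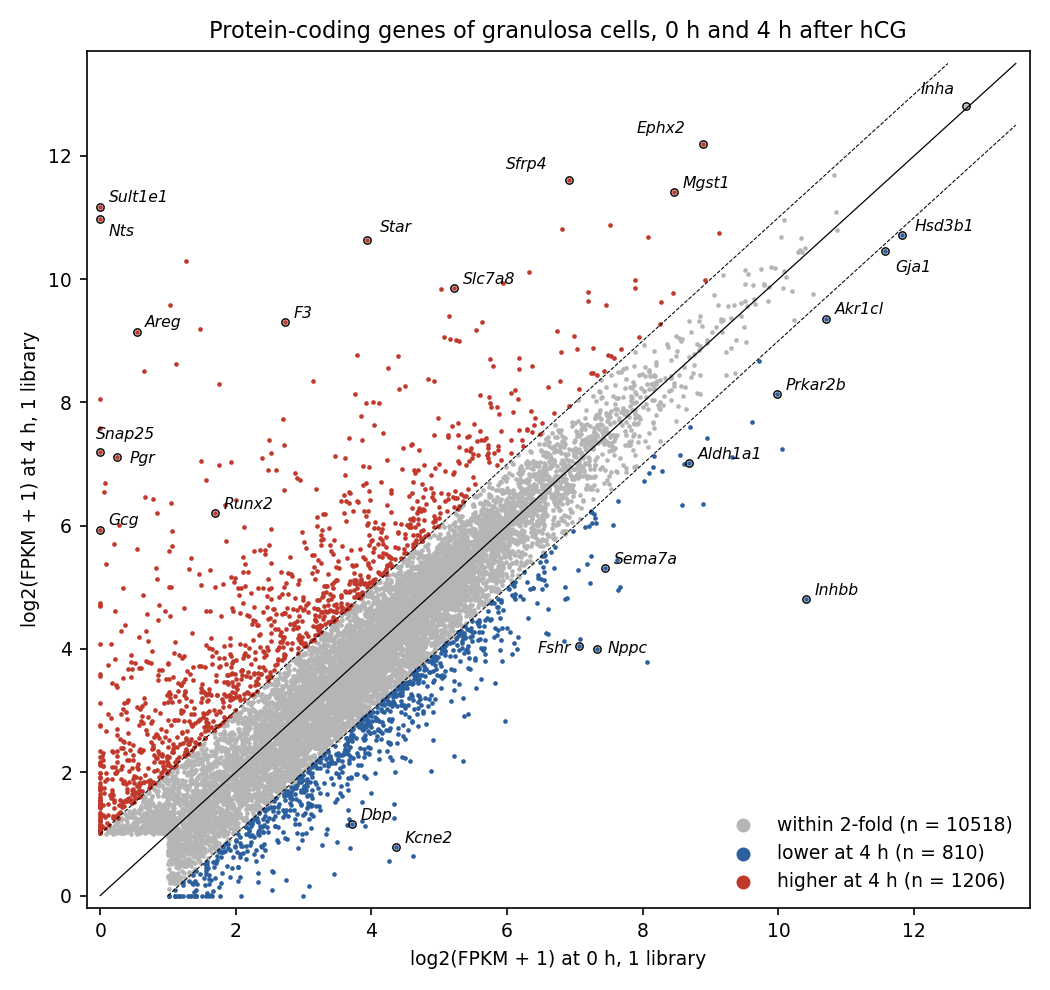
Level of each protein-coding gene at 0 h (x axis) and 4 h (y axis) as log2(FPKM + 1), 1 library per time, with the 2-fold limits as dashed lines and equal levels as a solid line. The 1206 higher genes reach far above the upper limit from levels near 0, and Inhbb lies farthest below the lower limit.

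Ephx2, which encodes the soluble epoxide hydrolase that opens lipid epoxides, gained the most FPKM. It was at 472 FPKM (420 to 524) at 0 h and 4700 (4581 to 4819) at 4 h, a log2 fold of 3.31, and at 4 h only Inha, the inhibin alpha subunit, stood above it. Inha was level, at 6986 and 7163 FPKM. Sfrp4, a secreted binder of WNT proteins, was at 119 FPKM (112 to 126) and 3130 (3092 to 3167), and the microsomal glutathione transferase Mgst1 at 351 (333 to 369) and 2728 (2676 to 2779). Their bounds lay far apart between the libraries. Ctsl, the lysosomal protease cathepsin L, gained 1495 FPKM without passing 2-fold, from 1810 to 3305. Ephx2 lies on chromosome 14 at 66084372 to 66124522, Sfrp4 on chromosome 13 at 19623175 to 19632825 and Mgst1 on chromosome 6 at 138140527 to 138156755 of GRCm38.

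**Figure D3:**
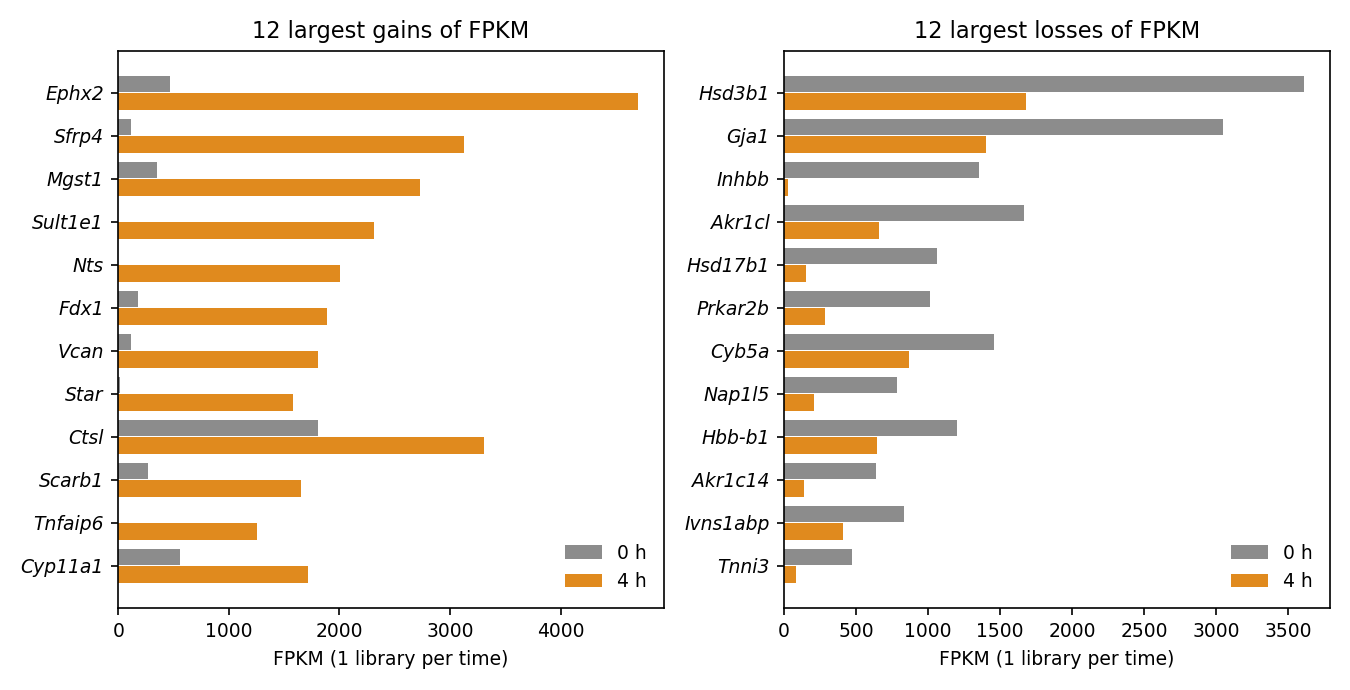
FPKM at 0 h (grey) and 4 h (orange) of the 12 protein-coding genes with the largest gain and the 12 with the largest loss, 1 library per time and no error bars. Ephx2 goes from 472 to 4700, and Hsd3b1 from 3609 to 1679.

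The largest losses were in abundant genes of the growing follicle. Gja1 encodes connexin 43, the gap junction protein that joins granulosa cells to each other. It was at 3048 FPKM (3021 to 3075) at 0 h and 1401 (1382 to 1420) at 4 h, a log2 fold of -1.12. Prkar2b, the RII-beta regulatory subunit of protein kinase A, was at 1012 (997 to 1028) and 281 (273 to 289). The aldo-keto reductase genes Akr1cl, at 1669 and 657 FPKM, and Akr1c14, at 636 and 138, were lower as well. Tnni3, known as the cardiac form of troponin I, went from 474 FPKM to 80.6. Cyb5a, a cytochrome b5, dropped by 589 FPKM and stayed within 2-fold. The 12 largest losses also hold the globin gene Hbb-b1, at 1199 and 647 FPKM, which red cells express and which belongs to a set of near-identical copies.

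F3 and Adcyap1 were among the 12 genes with the largest folds up, counted over genes that were above 0 FPKM at 0 h and reached 20 FPKM at 4 h. Genes listed at 0 at 0 h were kept apart, since their log2 folds depend on the added 1 FPKM. F3 encodes tissue factor, which starts blood coagulation. It was at 5.61 FPKM (4.00 to 7.22) before hCG and 633 (617 to 650) 4 h later, a log2 fold of 6.58. Adcyap1 encodes the peptide PACAP, which acts through receptors that raise cyclic AMP. It was at 0.040 FPKM (0 to 0.20) and 92.7 (86.9 to 98.5). Another 9 genes were listed at 0 at 0 h and at 20 FPKM or more at 4 h. Beyond Sult1e1, Nts, Nmu and Npy, the last 3 being neuropeptide genes, they were Snap25 at 146 FPKM, Gcg, the proglucagon gene, at 60.3, the transcription factor gene Msc at 26.0, Ly6m at 25.4 and Ripply1 at 24.9. No gene was listed at 0 at 4 h after 20 FPKM or more at 0 h. Genes of the lower direction with at least 20 FPKM, after Inhbb, included Cox4i2, an isoform of a cytochrome c oxidase subunit (39.6 and 3.53 FPKM, log2 fold -3.16), the mitochondrial carrier Slc25a35 (61.4 and 6.08, -3.14), the aldehyde dehydrogenase Aldh3b1 (36.3 and 3.80, -2.96) and Psd, an exchange factor for ARF GTPases (28.4 and 3.04, -2.86).

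Promoter windows of 250 bases before to 50 bases after the start were taken from RefSeq (GRCm38.p6) to show the sequence in front of genes that moved together. Such a window was found for 10080 of the 12534 genes. The letters searched, on both strands, include the full cyclic AMP response element (CRE), TGACGTCA, which binds CREB-family factors. Of all 10080 genes with a window 360 held a full CRE. Of these 360 genes 1.67% were higher by at least 8-fold, against 1.12% of the others. Of the 115 genes higher by at least 8-fold that had a window, 6 held a full CRE: Areg, Errfi1, Ch25h, Arl4d, Col24a1 and Chgb. The stretch before the start is shown for the 5 of them in which the CRE lies before it, with the CRE and, in Areg and Errfi1, a TATA box in capitals. Inhbb and Smim10l2a ranked 1 and 3 by fold down among genes with at least 20 FPKM in 1 library. There the capitals mark the GC box GGGCGG on either strand. Mro, which ranked 2 with a log2 fold of -4.27, was left out of the sequences shown. Each run is 5′ to 3′ on the strand of the gene and ends at the base before the start.
Areg (chr5:91139508-91139598, plus strand): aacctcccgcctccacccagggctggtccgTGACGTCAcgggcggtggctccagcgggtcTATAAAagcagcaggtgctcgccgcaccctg
Errfi1 (chr4:150854989-150855069, plus strand): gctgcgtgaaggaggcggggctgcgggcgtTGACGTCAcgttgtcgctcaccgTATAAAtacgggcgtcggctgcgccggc
Ch25h (chr19:34475149-34475239, minus strand): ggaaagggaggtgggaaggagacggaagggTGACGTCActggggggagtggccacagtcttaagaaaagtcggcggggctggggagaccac
Arl4d (chr11:101665485-101665540, plus strand): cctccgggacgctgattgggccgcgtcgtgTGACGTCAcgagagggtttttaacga
Chgb (chr2:132781540-132781641, plus strand): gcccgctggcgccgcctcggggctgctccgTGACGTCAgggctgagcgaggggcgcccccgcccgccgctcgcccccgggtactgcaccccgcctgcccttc
Inhbb (chr1:119422249-119422398, minus strand): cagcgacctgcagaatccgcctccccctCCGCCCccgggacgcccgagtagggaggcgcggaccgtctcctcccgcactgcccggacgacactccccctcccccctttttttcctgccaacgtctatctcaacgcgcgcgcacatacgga
Smim10l2a (chrX:56374367-56374516, plus strand): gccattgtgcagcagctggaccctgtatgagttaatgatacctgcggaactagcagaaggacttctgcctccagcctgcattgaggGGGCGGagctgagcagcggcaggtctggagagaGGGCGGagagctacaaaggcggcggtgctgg

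In both Areg and Errfi1 the CRE lies upstream of a TATA box, at 61 to 54 bases before the start in Areg and 51 to 44 in Errfi1. Ch25h, the cholesterol 25-hydroxylase, went from 0.783 FPKM to 72.6. Arl4d, a small GTPase of the ARF family, was at 3.82 and 46.9 FPKM, and Chgb, a granin of secretory granules, at 0.267 and 10.49. A gene can have several windows, and the compared genes had 12882 of the 32851 windows of this length in RefSeq. The CRE was found in 2.97% of the windows of compared genes and in 1.79% of all windows, and the shorter core TGACG in 30.2% and 20.8%. The AP-1 letters TGANTCA were in 5.21% and 7.81%, the TATA box TATAAA in 7.43% and 13.6%, and the GC box in 62.2% and 35.7%. The E-box CACGTG was in 9.97% and 7.15%, the nuclear receptor letters AAGGTCA in 3.19% and 4.72%, the RUNX letters TGTGGT in 12.2% and 16.8% and the EGR letters GCGNGGGCG in 10.4% and 5.55%. Windows of compared genes thus held GC-rich letters more often and TATA and AP-1 letters less often than RefSeq windows at large. Every full CRE also counts as a core, and EGR letters can overlap a GC box.

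The compared genes with a window were then split by whether it held each set of letters. Of 360 genes with a full CRE 11.4% were higher and 2.78% lower, against 9.17% and 6.54% of the 9720 without. The lower share rests on 10 genes. Of 630 genes with AP-1 letters 16.2% were higher, against 8.78% of the others. N was matched to any base, so these letters cover the site of FOS and JUN proteins and other runs as well. Of 908 genes with a TATA box 14.8% were higher, against 8.70% of the others, and 7.60% were lower, against 6.29%. EGR letters went with 11.4% higher against 8.94%. For the core, the GC box, the E-box, the nuclear receptor letters and the RUNX letters the higher shares with and without them were within 1 percentage point of each other. The lower shares were not for all of these: they were 5.41% with the core and 6.95% without, and 9.28% with the nuclear receptor letters, which rests on 36 genes, and 6.29% without. Windows were missing for part of each class. They were found for 115 of the 153 genes higher by at least 8-fold and 817 of the 1053 other higher genes. Of the 810 lower genes 646 had one. Apart from the full CRE, no value by letters is given for the 8-fold class alone.

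**Figure D4:**
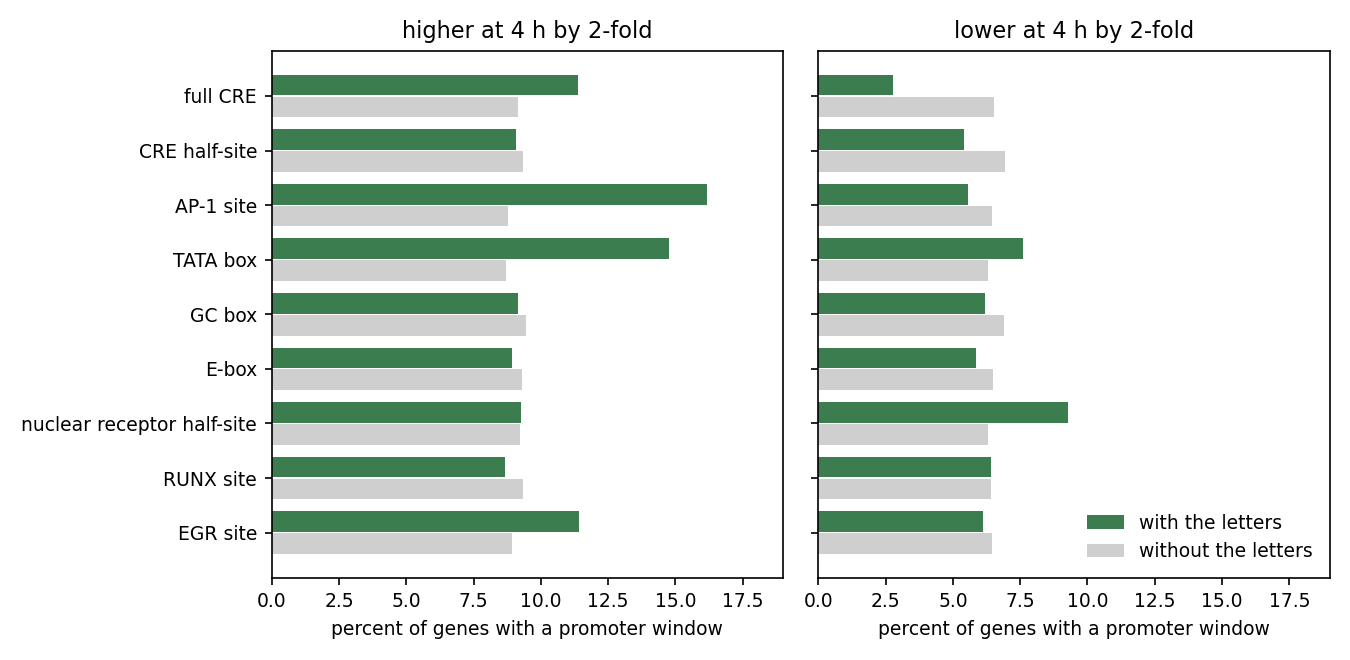
Percent of genes higher (left) and lower (right) by 2-fold at 4 h among genes whose promoter window holds each set of letters (green) and among the others (grey). AP-1 and TATA letters stand apart from the others on the left, at 16.2% and 14.8%, and the full CRE has the shortest green bar on the right, at 2.78%.

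In 40 groups of genes described next, the median log2 fold was positive in 32. More members were higher than lower in 28 groups and the reverse held in 8. Higher calls also outnumbered lower ones over all genes, 9.62% against 6.46%, so these counts are read against those shares, and counts such as 3 of 25 or 4 of 28 higher lie near them. The counts and medians cover members at 1 FPKM or more in 1 library, and a member that met this only at 4 h could only be level or higher. With all members of a list kept, the calls are the same by construction. A gene below 1 FPKM in both libraries cannot pass 2-fold once 1 FPKM is added. Medians move toward 0 in many lists: from 2.65 to 0.90 for neuropeptide genes, 0.72 to 0.16 for Notch and 0.68 to 0.37 for junctions. They move from 0.58 to 0.33 for amino acid transporters, 0.36 to 0.23 for TNF family and 0.29 to 0.17 for WNT genes. The moves are 0.23 to 0.12 for ATF4 and 0.18 to 0.042 for potassium channel genes. They are -0.14 to -0.015 for cyclic GMP and -0.19 to -0.080 for BCL2 family genes. With libraries brought to the mean sum, the medians of 13 lists, markers included, changed sign, and those values are given beside them. Granulosa cells released from a follicle come with other cells, and in such bulk samples a change in the number of cells of a type and a change in RNA per cell cannot be told apart. The marker values that bear on this are given after the groups.

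**Figure D5:**
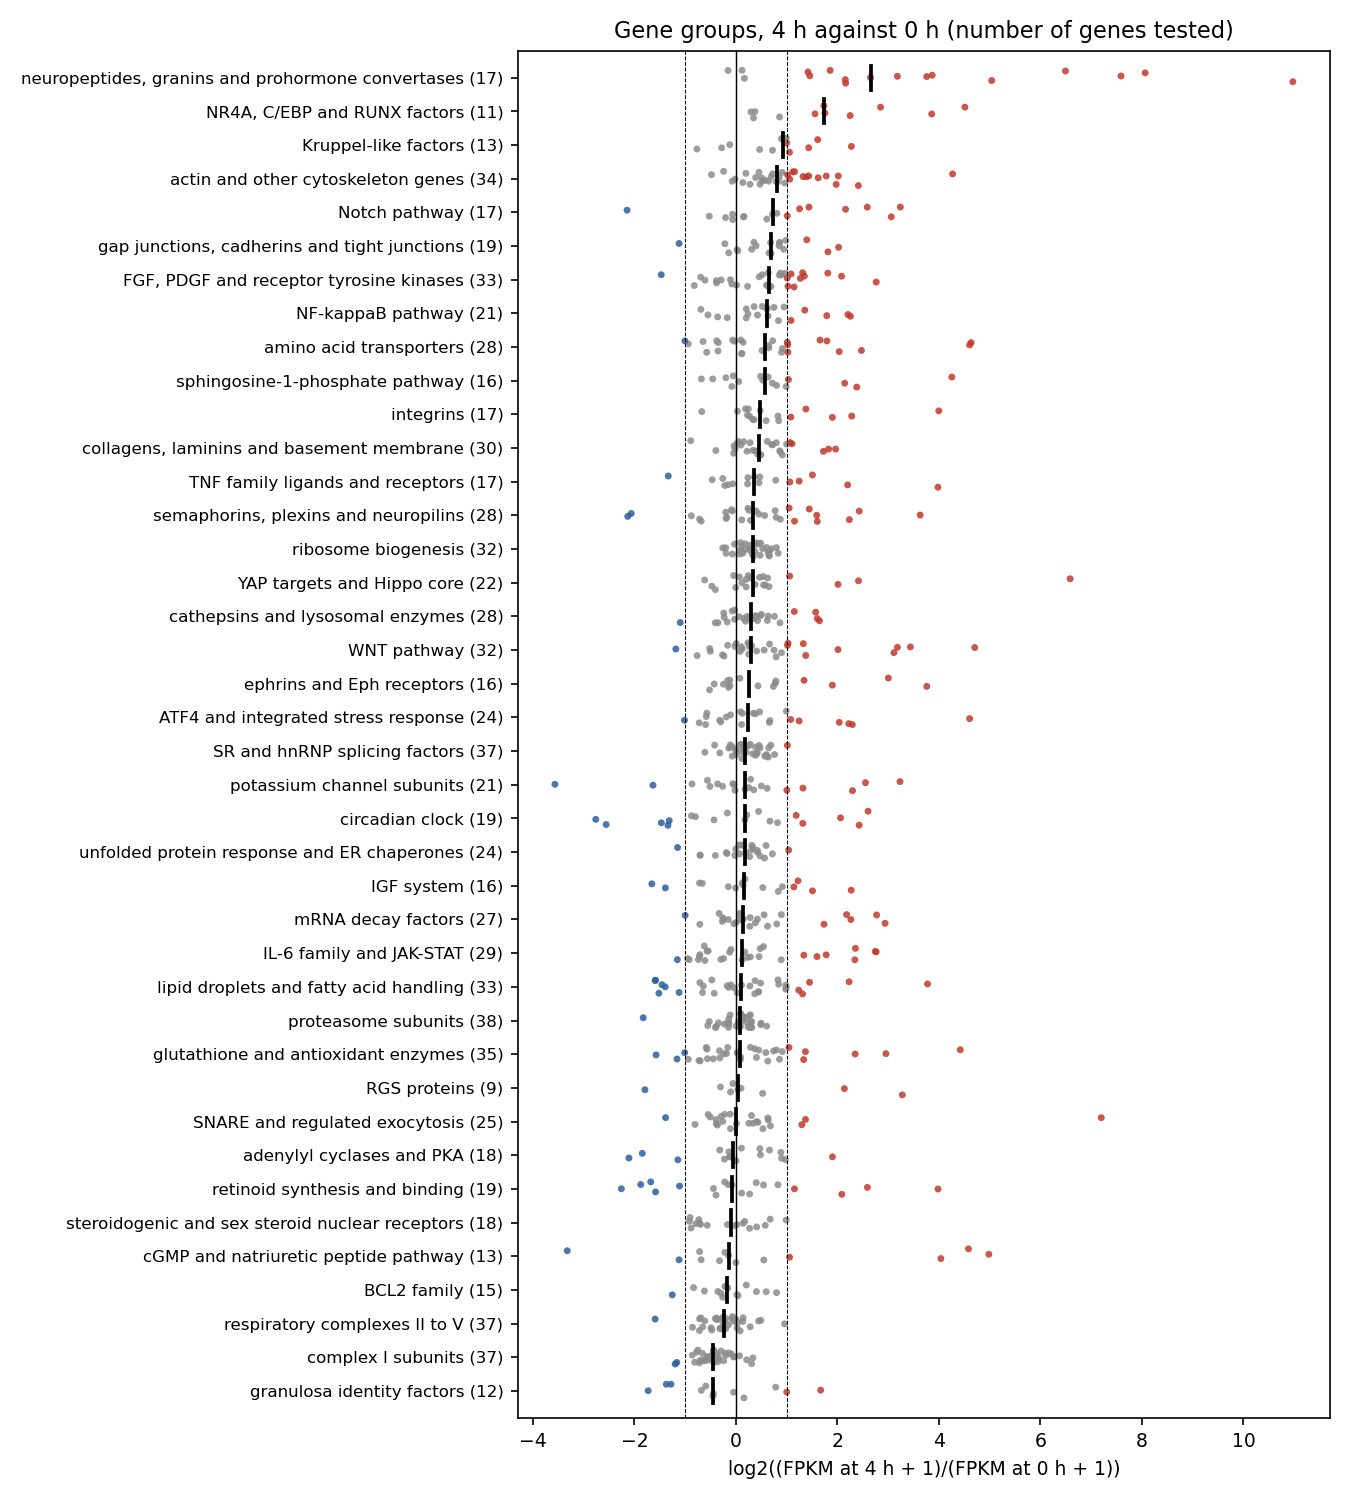
Log2 fold of FPKM + 1 (x axis) for each compared member of 40 gene groups (y axis), with the group's median as a black bar, members higher by 2-fold in red and lower in blue. Over members at 1 FPKM or more in 1 library, neuropeptide and NR4A, C/EBP and RUNX genes have the highest medians, 2.65 and 1.73 (0.90 and 1.56 over all members), and granulosa identity factors and complex I subunits the lowest, both near -0.45.

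Transcription factors of the NR4A, C/EBP and RUNX families, which answer hormonal signals in many tissues, were mostly higher. Of 11 NR4A, C/EBP and RUNX factors all had positive log2 folds and 7 were higher (median 1.73). Runx2, known from bone formation, was at 2.23 FPKM (1.25 to 3.35) at 0 h and 72.6 (61.7 to 86.6) at 4 h. Runx1 was at 5.57 (4.17 to 7.10) and 94.2 (85.7 to 105). Both C/EBP genes that luteinization depends on were higher, Cebpa at 42.9 and 147 FPKM and Cebpb at 50.4 and 170, and the orphan receptor gene Nr4a1 was at 11.9 and 91.7. Cbfb, the shared partner of RUNX proteins, was at 58.8 and 75.0 FPKM, within 2-fold. Of 13 Kruppel-like factors 5 were higher and none lower (median 0.92), led by Klf4 (1.74 and 12.3 FPKM) and Klf3 (5.35 and 18.4). With libraries brought to the mean sum Klf6 and Klf7 were no longer past 2-fold.

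Factors that define granulosa cells moved the other way in part. Of 12 granulosa identity factors 3 were lower, 2 were higher and 7 were neither (median -0.45). Beside Foxl2, at 149 and 44.3 FPKM, Gata4, which activates steroidogenic genes, went from 102 FPKM to 38.7. Foxo1, a factor of the growing granulosa cell, was at 257 and 105. Gata6 was at 61.2 and 44.7 FPKM, within 2-fold. Irx5 was higher, at 1.60 and 7.27 FPKM, and Wt1, at 13.2 and 27.4, was just past 2-fold on the deposited scale but not on the rescaled one. None of 18 steroidogenic and sex steroid nuclear receptor genes passed 2-fold (median -0.10, but 0.022 with a filter of 5 FPKM), although Esr1 (4.36 and 1.84 FPKM), Esr2 (102 and 54.3), Nr5a2 (304.0 and 164) and Nr5a1 (107 and 64.0) all had log2 folds between -0.92 and -0.73. On the rescaled libraries 3 of the list, Esr1, Esr2 and Nr5a2, were lower, and with a pseudocount of 0.1 FPKM 2 were higher and 3 lower. Nr3c1, the glucocorticoid receptor, had the highest log2 fold of the list, 0.99, at 2.68 and 6.30 FPKM.

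Secreted peptides held many of the higher genes. Of 28 genes of neuropeptides, granins and prohormone convertases 17 were compared, 14 were higher and none lower (median 2.65, but 0.90 over all 28, below the 1.56 of NR4A, C/EBP and RUNX factors), and 4 of the 17 were listed at 0 at 0 h, so that their log2 folds depend on the added 1 FPKM. Penk, which encodes the enkephalin precursor, was at 5.45 FPKM (3.60 to 7.30) at 0 h and 211 (200 to 222) at 4 h. Tac1, the substance P precursor, was at 6.49 and 108, and Gal, galanin, at 1.36 and 13.8. The proprotein convertases Pcsk5 (11.7 and 171 FPKM), Furin (22.6 and 62.0) and Pcsk6 (5.63 and 23.0), which cleave precursors, were higher too. Cpe, a carboxypeptidase that trims peptide hormones, was abundant and level at 886 and 963 FPKM. The machinery that fuses vesicles with the membrane did not move with them: of 25 genes of SNARE and regulated exocytosis 3 were higher, 1 was lower and 21 were within 2-fold (median 0.0094, and -0.18 on the rescaled libraries). The higher ones were Snap25, a SNARE protein of neurons and endocrine cells, Vamp1 (5.11 and 14.8 FPKM) and Stx3 (7.99 and 21.1), and Sytl4 was lower (81.9 and 30.7). The SNARE relatives Snap23 (29.7 and 25.3) and Vamp8 (77.8 and 72.1) were within 2-fold.

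Genes of cyclic nucleotide signalling changed in both directions. Cyclic GMP made under the control of the natriuretic peptide C holds the oocyte in meiotic arrest. The ligand gene Nppc was lower, at 159 FPKM (148 to 170) at 0 h and 15.0 (11.2 to 18.8) at 4 h, and its receptor gene Npr2 was at 139 and 84.0, within 2-fold. The receptor gene Npr1, which binds the atrial peptide, went the other way, from 12.8 FPKM (10.8 to 14.8) to 435 (426 to 444). The clearance receptor Npr3 was at 0.282 and 20.1 FPKM and the cyclic GMP-dependent kinase Prkg2 at 1.02 and 47.3. Of the 13 genes of this group 4 were higher, among them Nppa, listed at 0 at 0 h and at 1.08 FPKM at 4 h, and 2 were lower, the second being Gja1 (median -0.14). Of 18 genes of adenylyl cyclases and protein kinase A 1 was higher and 3 were lower (median -0.056, but 0.0029 with no filter and 0.14 with each gene's main isoform). The regulatory subunit Prkar1b was higher (2.63 and 12.6 FPKM) where Prkar2b was lower, and the exchange factor Rapgef4 (48.2 and 10.4) and the cyclase Adcy9 (18.1 and 7.64) were lower. The catalytic subunit Prkaca was level at 43.3 and 39.7. Of 9 RGS genes, whose proteins shorten G-protein signals, Rgs2 (174 and 769 FPKM) and Rgs1 (0.131 and 9.97) were higher and Rgs3 (26.1 and 6.82) was lower (median 0.037, and -0.085 on the rescaled libraries).

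Pathways between neighbouring cells held more higher than lower genes. In the Notch pathway 7 of 17 genes were higher and 1 was lower (median 0.72, but 0.16 over all 23 of the list). The ligand gene Jag1 was at 2.80 FPKM (2.09 to 3.51) and 34.9 (32.7 to 37.0), the receptor gene Notch2 at 8.54 and 56.4, and the target gene Hey1 at 1.95 and 23.6. The related target Hey2 was lower, at 70.1 and 15.1 FPKM, so the Hey genes moved in opposite directions. In the WNT pathway 9 of 32 genes were higher and 1 was lower (median 0.29). Besides Sfrp4 the higher ones included the secreted inhibitor Sfrp2 (0.625 and 16.6 FPKM), the ligands Wnt11 (0.178 and 9.68) and Wnt4 (4.56 and 21.4) and the receptor Fzd1 (2.92 and 32.9). Axin2, a common target of the beta-catenin branch, was at 2.62 and 3.49 FPKM, within 2-fold, and the inhibitor Frzb was lower (20.7 and 8.54). Of 16 ephrins and Eph receptors 4 were higher and none lower (median 0.26), with Epha4 at 2.06 and 23.5 FPKM and Epha7 at 3.76 and 16.7 next to the ligand Efnb2.

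Semaphorins and plexins, known as guidance cues for axons and vessels, changed in both directions. Of 28 members 8 were higher and 2 were lower (median 0.34). The lower pair is a ligand and its receptor: Sema7a was at 174 FPKM (167 to 180) at 0 h and 38.8 (35.9 to 41.7) at 4 h, and Plxnc1 at 117 and 27.4. Higher members included Sema4f (0.079 and 12.4 FPKM) and Sema3e (0.506 and 7.11), both compared only through their 4 h level, Sema3a (1.04 and 8.59) and Sema3c (40.8 and 126). Of 33 genes of FGF, PDGF and receptor tyrosine kinases 10 were higher and Fgf13 was lower (median 0.65). With a pseudocount of 5 FPKM only 2 were higher and none lower (median 0.34). The leading pair was Gfra1 (0.276 and 7.67 FPKM), a co-receptor of the RET kinase, and its ligand Gdnf (14.2 and 63.5). Egfr, the receptor for the EGF-like ligands, was within 2-fold at 9.29 and 13.1 FPKM. In the IGF system 4 of 16 genes were higher and 2 lower (median 0.16, and -0.058 on the rescaled libraries), with the binding protein Igfbp3 at 1.51 and 11.1 FPKM and the lower adaptors Irs1 (31.6 and 9.33) and Grb14 (373 and 141).

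The cytoskeleton and the contacts of the cells with matrix were among the groups with many higher genes. Of 34 genes of actin, its regulators and other filaments 13 were higher, 9 on the rescaled libraries, none was lower and 30 had positive log2 folds (median 0.81). Of the 13, 4 are not actin genes: vimentin (Vim) and the tubulins Tubb6, Tubb2a and Tubb2b. Tagln2, transgelin 2, was at 34.3 FPKM (27.6 to 41.0) at 0 h and 679 (659 to 699) at 4 h. The tropomyosin Tpm4 was at 106 and 568, vinculin (Vcl) at 42.5 and 175, and thymosin beta 4 (Tmsb4x) at 235 and 926, while the actin gene Actb was level at 1106 and 1051. Of 17 integrins, the receptors for matrix, 5 were higher and none lower (median 0.48), with Itga2 at 6.29 and 115 FPKM, Itga5 at 14.5 and 74.3, Itga3 at 12.0 and 47.4 and Itgav at 71.5 and 187.

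Basement membrane genes joined them in part. Of 30 collagens, laminins and other basement membrane genes 5 were higher and none lower (median 0.46), including the paired collagen IV chains Col4a1 (41.2 and 148 FPKM) and Col4a2 (24.6 and 83.5) and Col18a1 (7.97 and 34.0). The other collagen IV chains were at 23.7 and 24.0 FPKM (Col4a5) or lower, all within 2-fold. On the rescaled libraries Hspg2 and Fn1 were no longer past the limit and Lama4, at 18.5 and 9.51 FPKM, was lower. Of 19 genes of gap junctions, cadherins and tight junctions 3 were higher, including Cldn3 (1.35 and 8.55 FPKM) and Cldn1 (0.791 and 3.71), and Gja1 alone was lower (median 0.68). Of 22 YAP target and Hippo genes 4 were higher and none lower (median 0.33): F3, Tead1 (7.67 and 45.3 FPKM), Sav1 (29.5 and 122) and Crim1, the last not on the rescaled libraries. The common YAP targets Ccn1 (37.4 and 56.4) and Ccn2 (215 and 332) were within 2-fold.

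Inflammatory signalling genes were higher in part. Of 21 NF-kappaB pathway genes 5 were higher and none lower (median 0.61), including Nfkbiz (2.77 and 17.0 FPKM), the adhesion molecule Icam1 (0.483 and 5.84) and the feedback inhibitor Tnfaip3 (0.726 and 4.96). With a pseudocount of 5 FPKM only 1 of the 21 was higher. Of 17 TNF family ligands and receptors 5 were higher and Eda2r was lower (median 0.36). Tnfrsf12a, the receptor for TWEAK, was at 32.7 FPKM (24.3 to 41.2) and 531 (454 to 608), and its ligand Tnfsf12 at 9.46 and 7.99. In the IL-6 family and JAK-STAT group 7 of 29 genes were higher and 1 was lower (median 0.12, but -0.19 on the rescaled libraries and -0.17 with a filter of 5 FPKM). The higher ones were the ligands Il6, Il11 (0.183 and 3.06 FPKM) and Clcf1 (1.24 and 14.0), the receptor Osmr (0.323 and 7.98), Stat3 (16.8 and 43.9) and the feedback inhibitors Cish (6.12 and 35.4) and Socs3 (5.97 and 20.1). Stat5a was lower, at 21.9 and 9.29 FPKM, and Jak1, at 234 and 123, was just within 2-fold. Of 16 sphingosine-1-phosphate genes 4 were higher and none lower (median 0.58), with the kinase Sphk1 at 0.540 and 28.4 FPKM and the receptor S1pr1 at 1.004 and 7.85.

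Nutrient uptake and lipid handling changed gene by gene. Of 28 amino acid transporters 9 were higher and Slc38a6 was lower (median 0.58), against 6 higher and 2 lower on the rescaled libraries. Slc7a8, which carries large neutral amino acids, was at 36.3 FPKM (33.8 to 38.9) and 926 (913 to 939). Its partner chain Slc3a2 was at 109 and 452, the cystine carrier Slc7a11, which uses the same partner, at 1.09 and 49.8, and the arginine carrier Slc7a1 at 5.79 and 36.7. The other light chain Slc7a5 was level at 59.6 and 64.5. Of 33 genes of lipid droplets and fatty acid handling 5 were higher and 6 lower (median 0.11, and -0.11 on the rescaled libraries). Acsl4, which activates arachidonic acid, was at 21.5 FPKM and 307, where the 4 h estimate has no bounds because it is marked as failed for an isoform, and the cholesterol exporter Abca1 was at 14.2 and 70.1. Fabp5 (59.5 and 19.2 FPKM), Fabp3 (18.6 and 6.13), Elovl6 (58.7 and 21.7) and Cpt1c (16.8 and 5.21) were lower. Of 19 genes of retinoid synthesis and binding 4 were higher and 5 lower (median -0.077, but 0.11 with no filter). Adh7 (1.49 and 38.3 FPKM) and Rdh10 (4.30 and 30.9), both able to oxidise retinol, were higher, and Aldh1a1 (412 and 128), Aldh1a7 (21.0 and 5.00) and Crabp1 (9.11 and 1.12) were lower.

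Antioxidant and stress genes showed the same mixed picture. Of 35 glutathione and antioxidant genes 6 were higher and 3 lower (median 0.088, and -0.13 on the rescaled libraries). Sulfiredoxin (Srxn1) was at 4.56 FPKM (3.38 to 5.75) and 118 (113 to 124), Gclc, the catalytic subunit of the first enzyme of glutathione synthesis, at 34.0 and 177, and Nfe2l2, which encodes the regulator NRF2, at 51.9 and 136. Nqo1, a textbook target of NRF2, was lower, at 4.18 and 0.739 FPKM, and so was catalase (Cat), at 40.5 and 19.6. Of 24 genes of ATF4 and the integrated stress response 6 were higher and 1 lower (median 0.23), with Atf4 at 150.1 and 357 FPKM, Nupr1 at 81.7 and 385 and Atf3 at 1.01 and 8.86, while Ddit3 was within 2-fold at 18.6 and 23.8. Of 24 genes of the unfolded protein response and ER chaperones Ern1 was higher, though not on the rescaled libraries, and Herpud1 was lower, at 59.0 and 26.0 FPKM (median 0.17, and -0.041 on the rescaled libraries). Of 28 cathepsins and lysosomal genes 4 were higher and 1 lower (median 0.30), with Gla (9.67 and 32.4 FPKM) and Ctsc (20.5 and 64.3) in front. Of 15 BCL2 family genes none was higher and Bcl2l1, an inhibitor of cell death, was lower at 42.7 and 17.3 FPKM (median -0.19). That call turned with its main isoform alone, where the log2 fold was 0.32. Mcl1, another inhibitor of cell death, was at 61.6 and 108.

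Genes that handle RNA and protein changed little, with a few exceptions. Of 27 mRNA decay genes 5 were higher and 1 was lower (median 0.15, and -0.073 on the rescaled libraries). The higher ones were all adaptors that direct decay, Zfp36 (8.21 and 69.6 FPKM), Zfp36l1 (23.8 and 118), Btg1 (14.1 and 102), Btg2 (7.91 and 39.4) and Btg3 (6.44 and 23.8), whereas the deadenylase subunit Cnot6 was lower (150.3 and 74.6). None of 32 ribosome biogenesis genes passed 2-fold, and 27 of them had positive log2 folds (median 0.33). Of 37 SR and hnRNP splicing factors only Mbnl1 passed it, and not on the rescaled libraries (median 0.18, and -0.041 on the rescaled libraries). Of 38 proteasome subunits Psmb9, an immunoproteasome subunit, was lower at 11.5 and 2.51 FPKM and the rest were within 2-fold (median 0.089, and -0.13 on the rescaled libraries).

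Respiratory chain genes were shifted down by small amounts. Of 37 complex I subunits 33 had negative log2 folds (median -0.45), but only Ndufc1 (282 and 122 FPKM) and Ndufv3 (156 and 69.0) were lower by 2-fold, against 4 subunits on the rescaled libraries. Of 37 genes of complexes II to V 28 had negative log2 folds (median -0.24) and Cox7a1 was lower (23.6 and 7.17). Of 21 potassium channel subunits 5 were higher and 2 lower (median 0.18, and -0.0040 on the rescaled libraries). Kcnk5 (5.56 and 31.2 FPKM) and Kcnj8 (0.565 and 8.18) were higher and Kcne2 (19.5 and 0.731) and Kcnh2 (24.7 and 7.27) were lower. The top member Kctd12 (2.52 and 32.1) is known as an auxiliary subunit of the GABA-B receptor, not of a potassium channel.

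The circadian clock group held as many higher as lower genes, 5 of 19 in each direction (median 0.18, but -0.042 on the rescaled libraries and -0.0039 with no filter). Nfil3 was at 11.1 FPKM and 72.6, Bhlhe40 at 8.54 and 50.3, Per1 at 8.18 and 37.3, Cry2 at 12.4 and 32.4 and Csnk1e at 25.6 and 59.5. Ciart was at 13.9 FPKM and 1.20, Dbp at 12.1 and 1.23, Tef at 31.96 and 10.9, Nr1d2 at 22.4 and 8.24 and Per3 at 4.86 and 1.36. Nfil3 and Dbp, which bind the same DNA element as a repressor and an activator, thus moved in opposite directions. Nr1d1, Bhlhe41 and Per2, with negative log2 folds, and Arntl and Clock, with positive ones, stayed within 2-fold. The labels used here give no clock time of collection, so the time since hCG and the time of day cannot be told apart for these genes.

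The label of the cells was checked against 14 granulosa cell markers, all of which were expressed. Their summed level was 12064 FPKM at 0 h and 9361 at 4 h, 5 were lower and none was higher (median -0.83), against 7 lower on the rescaled libraries. Besides Inhbb, Fshr, Hsd17b1 and Foxl2 the lower one was Cyp19a1, at 198 and 30.02 FPKM. Amh, at 252 and 351, Inhba, at 699 and 784, and the LH receptor Lhcgr, at 90.1 (84.96 to 95.2) and 113 (108 to 119), were within 2-fold.

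Markers of other cells were present at both times and some were higher at 4 h. Endothelial markers summed to 39.1 FPKM at 0 h and 74.0 at 4 h, with 4 of 11 higher (median 0.86), among them Kdr (1.54 and 7.92) and Emcn (2.77 and 7.997), and with Vwf at 0.165 and 0.243. With a pseudocount of 5 FPKM none of the 11 was higher. Leukocyte markers summed to 113 and 190.2 FPKM, with 3 of 11 higher (median 0.85), led by Cd68, while Ptprc was at 0.489 in both libraries and Cd3e at 0.062 and 0. Neutrophil markers summed to 2.46 and 25.6 FPKM, 3 of 4 were higher, and Ngp and Elane were listed at 0 in both libraries. Surface epithelium markers summed to 473 and 278 FPKM, mostly Aldh1a1, with 4 of 11 higher and 1 lower (median 0.91). Smooth muscle and pericyte markers summed to 120.2 and 182 FPKM, with Tagln higher, though not on the rescaled libraries (median 0.30). Theca and stroma markers summed to 456 and 820 FPKM, with Mgp alone higher among 13 (median 0.15, and -0.13 on the rescaled libraries). None of 12 oocyte markers passed 2-fold and all 12 had negative log2 folds (median -0.39, sum 294 and 228 FPKM). Of 5 erythroid markers Hbb-bs, a near-identical globin copy, was higher and the other 4 had negative log2 folds (median -0.70, sum 2012 and 1273 FPKM). The part of these other cells in the higher endothelial, junction, matrix and inflammatory genes was not tested.

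Genes higher at 4 h also lay next to each other in places. Among 8996 pairs of neighbouring compared genes, 164 pairs were both higher (1.82%), 64 were both lower (0.711%) and 87 moved in opposite directions (0.967%). Over all compared genes 9.62% were higher and 6.46% lower, so pairs of both kinds arise without regard to position. The pair shares that these rates alone would give were not computed. The highest run was the EGF-like ligand cluster on chromosome 5, in which Epgn (91027517 to 91035212), Ereg, Areg and Btc (91357261 to 91402994) follow each other with gaps of 39404, 45949 and 208828 bases. All 4 had log2 folds above 6, Epgn going from 0.051 FPKM to 102, and Parm1, the next compared gene after Btc, was higher as well (log2 fold 2.73). Zfp365 (0.814 and 25.2 FPKM) and Rtkn2 (1.81 and 32.01) lie 66903 bases apart on chromosome 10. Serpinb9 (7.82 and 326 FPKM) and Serpinb9b (1.04 and 22.2) on chromosome 13 belong to a family of closely related serpins, so their reads may have been split between copies. Genes higher by at least 8-fold had a median span of 18905 bases in the genome, but all 1206 higher genes 26586, genes lower by 2-fold 20817 and genes within 2-fold 23334.5.

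Among 1985 genes with several isoforms and at least 10 FPKM at both times, the share of 1 isoform changed by 50 percentage points or more in 141 and by 25 or more in 487. The 5 with the largest change went from nearly all of 1 isoform to nearly none. In Pdpn, podoplanin, an isoform at 21.2 FPKM at 0 h was at 0.024 at 4 h and the other went from 0.0017 to 48.1, while the gene's sum went from 21.2 to 48.1. In Homer3, a scaffold protein, an isoform went from 13.2 to 0.012 FPKM and another from 0.045 to 15.2. In Aldh18a1, an enzyme of proline synthesis, the values were 27.2 and 0.0044 for an isoform and 0.152 and 19.3 for another. Enoph1 and Anapc15 behaved likewise, with sums of 19.5 and 17.9 FPKM and of 16.3 and 12.9. The assignment of reads to isoforms of nearly the same sequence is an estimate, and with 1 library per time its repeatability is unknown. Of all isoforms listed, 634 were numbered copies of a transcript at another position, and each was counted as an isoform of its own. How many of the share changes lie between such copies was not counted.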

How the data were processed

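The authors deposited FPKM values of RefSeq isoforms with a lower and an upper bound, 1 value per isoform and library, and listed the mm10 genome, Cufflinks 2.2.1, TopHat2 2.1.1 and CASAVA 1.8 in the submitters' processing notes, without role or order. Strand, read length and the level of the bounds are not given in the sources used here, so overlapping antisense genes and near-identical copies are uncertain. Of 34535 isoforms, 34169 were matched to symbols through RefSeq for GRCm38.p6, the assembly that mm10 names, and 193 through GENCODE, and 173 were left out. FPKM were summed to 24225 genes and bounds combined as the root of summed squared half-widths, which assumes independent estimates. Of the isoform estimates at 0 and 4 h, 10 were marked as failed, touching 4 compared genes. The fragment total behind the FPKM was read from the steps of low values. Of these, 71.0% and 70.0% were whole fragments to within 0.1, where chance gives 20%. The step from FPKM to calls used a pseudocount of 1 FPKM, a filter of 1 FPKM in 1 library and a fold of 2, with no test. The 2-fold rule alone was tested on simulated data, with counting error as the only error and 1 length of 2 kb for all genes. Isoform sums, bounds, fragment totals and promoter letters were not tested in this way. The work used Python 3.11.15, pandas 2.3.3, numpy 2.4.6 and matplotlib 3.10.9. Genes named are the 12 with the largest folds and the 12 with the largest gains and losses in each direction, up to 6 members of each list and its most abundant member, list markers, neighbours, isoform changes and genes with a full CRE. Other list members named for contrast were chosen after their values were seen. A gene group and a gene of another group are not reported here. The comparison and the lists were chosen with earlier results of these data known. The alternatives tried were no filter or one at 5 FPKM, pseudocounts of 0.1 and 5 FPKM, scaling to the mean coding sum or by median of ratios, the main isoform, folds of 1.5 and 4, bounds that lie apart, and, added after seeing the data, genes with 1 isoform only.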

Additional observations from a re-analysis of the deposited data

How the results depend on the processing

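The counts of 1206 higher and 810 lower genes moved with the pseudocount and the fold. With a pseudocount of 0.1 FPKM there were 1542 higher and 1242 lower genes, with 5 FPKM 686 and 295, at 1.5-fold 2317 and 2267 and at 4-fold 393 and 75. With libraries scaled to the mean coding sum there were 958 and 1329, and with median-of-ratios scaling 1192 and 822. Higher genes were 41.9% of calls under the first of these and 59.2% under the second. The factors of the second, 0.998 and 1.002, lie so near 1 that its counts had to stay close to those of the deposited scale. Dropping the filter had to leave both counts as they were. A gene below 1 FPKM in both libraries cannot pass 2-fold once 1 FPKM is added. A filter of 5 FPKM gave 950 and 649 and the main isoform 1373 and 1012. Bounds that lie apart gave 1122 and 702, and genes with 1 isoform only 869 and 553.

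Scaling to the mean coding sum turned 13 list medians negative: circadian clock -0.042, RGS proteins -0.085, SNARE genes -0.18, IL-6 and JAK-STAT -0.19, unfolded protein response -0.041, antioxidant enzymes -0.13, mRNA decay -0.073, proteasome -0.13, potassium channels -0.0040, lipid handling -0.11, IGF system -0.058, splicing factors -0.041 and theca markers -0.13. This scaling lowers every 4 h value by construction. With no filter the medians of circadian clock (-0.0039), adenylyl cyclase (0.0029) and retinoid genes (0.11) changed sign. With a filter of 5 FPKM those of nuclear receptors (0.022), RGS (-0.059) and IL-6 genes (-0.17) did. With the main isoform that of adenylyl cyclase genes (0.14) and the log2 fold of Bcl2l1 (0.32) did. For the last 3 alternatives the cause was not tested.

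Of 354 named genes 239 were past 2-fold. Of these, 49 were no longer past it with a pseudocount of 5 FPKM and 18 with scaling to the mean coding sum. With median of ratios 2 (Klf7 and Wt1) were no longer past it. With the main isoform 8 were no longer past it, and in addition Bcl2l1 changed sign and lay within 2-fold. No paired analysis was possible because each time has 1 library, for which reason leaving a library out was not run either. Depth limits low genes: 1 fragment on a 2 kb transcript is worth 0.0373 FPKM at 0 h and 0.0420 at 4 h. These steps cover counting error only. The intervals can be wider than that, as for Sparc at 4 h (360 FPKM, 105 to 874). Neither covers the spread between mice.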

Other observations

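Transcripts annotated as long non-coding RNA were not part of the comparison above. Of 449 such genes at 1 FPKM or more in 1 of the 2 libraries, 63 were higher at 4 h (14.0%) and 70 were lower (15.6%), with a median log2 fold of -0.15. Higher ones included Gm6093, from 0.305 FPKM to 33.2, and 1700108F19Rik, at 2.03 and 24.5. Ptgs2os2, listed beside the prostaglandin synthase gene Ptgs2, was at 0.096 and 5.70 FPKM, and since the strand of the reads is not given, reads of overlapping genes cannot be told apart. Lower ones included Lockd, at 29.9 and 7.99 FPKM, 2610507I01Rik, at 35.8 and 7.36, and Snhg9, at 7.47 and listed at 0. The genes given here are examples chosen with their values in view.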
